A study of Drosophila melanogaster with 3 samples.

Results

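The genes of the aminoacyl-tRNA synthetases were examined for binding of the protein CG10669 in Drosophila melanogaster. A gene was a member if it was protein-coding in Ensembl and its symbol was 1 or 2 three-letter amino acid codes followed by RS, with or without the ending -m. The rule took 33 of 13945 protein-coding genes, 18 without the ending (cytoplasmic) and 15 with it (mitochondrial). The data were chromatin immunoprecipitation with sequencing (ChIP-seq), which recovers DNA fragments bound by a protein. The 3 biological replicates formed 1 group: whole prepupae of both sexes from a transgenic line that stably carries CG10669 with GFP fused to its C-terminus. There was no second genotype, stage or treatment. The antibody label reads CG10669 and not GFP, so whether untagged protein was recovered as well is not known. The sample text also calls the libraries an input control, and the age label of 24 days cannot belong to a prepupa; neither was followed.

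Aminoacyl-tRNA synthetases join each amino acid to its transfer RNA, the step that fixes the genetic code during protein synthesis. Charging takes place in the cytoplasm and, separately, in mitochondria. The mitochondrial enzymes are encoded in the nucleus and imported, and several amino acids are served there by the product of the same gene as in the cytoplasm. The rule found a mitochondrial member for 15 of 20 amino acids, and none for glutamine, glycine, histidine, lysine and threonine. The classes rest on the symbol alone. A gene counted as cytoplasmic, such as that for glycine or threonine, may therefore serve mitochondria as well. It found a cytoplasmic member for 19, because the cytoplasmic phenylalanine enzyme has subunit genes with other symbols (alpha-PheRS and beta-PheRS). Glutamate and proline share the cytoplasmic gene GluProRS, whose product is a bifunctional enzyme.

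Few synthetase genes carried a reproducible peak, and each of those peaks lay where the synthetase gene and an oppositely directed neighbour start close together. A summit (the position of highest signal in a peak) of the 7248 reproducible peaks lay within 500 bp of a transcription start site (TSS) of 4 of 33 members (12.1%, 95% Wilson interval 4.82 to 27.3%). These were SerRS, GluProRS, AspRS and the mitochondrial ArgRS-m. The same call took 15.4% of all protein-coding genes, a share inside that interval. The interval is wide and describes counting over genes, and whether the members differ from all genes was not tested. The nearest reproducible summit was a median of 8081 bp from a member's TSS, against 7795 bp for all protein-coding genes.

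The sequences of 4 divergent promoters with summits between the 2 start sites are shown. GluProRS and ArgRS-m had a reproducible peak, and IleRS and ThrRS had strong peaks in 1 or 2 replicates but none in the pooled list. ArgRS, AsnRS, GlyRS and MetRS, each in the list of 1 replicate, also had a summit between the 2 starts and are not shown. The 4 sequences are from the RefSeq copy of the Release 6 (dm6) genome, on the plus strand. Capitals mark matches, on either strand, to the motifs searched, which are spelled out further on. The first holds all bases between the TSSs of GluProRS and AP-1sigma at chr3R:23958392-23958650. The second is the stretch between the TSSs of CG17816 and ArgRS-m within 150 bp of the summit, at chr3R:7886802-7887044. The third and the fourth are 200 bp around the summits of replicate 3 upstream of IleRS at chr3L:22288414-22288613 and ThrRS at chr2L:12103405-12103604.
GluProRS: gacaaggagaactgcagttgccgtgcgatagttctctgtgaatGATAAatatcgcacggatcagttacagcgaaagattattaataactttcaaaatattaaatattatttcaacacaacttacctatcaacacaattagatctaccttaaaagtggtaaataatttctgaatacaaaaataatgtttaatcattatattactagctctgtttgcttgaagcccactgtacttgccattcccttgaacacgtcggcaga
ArgRS-m: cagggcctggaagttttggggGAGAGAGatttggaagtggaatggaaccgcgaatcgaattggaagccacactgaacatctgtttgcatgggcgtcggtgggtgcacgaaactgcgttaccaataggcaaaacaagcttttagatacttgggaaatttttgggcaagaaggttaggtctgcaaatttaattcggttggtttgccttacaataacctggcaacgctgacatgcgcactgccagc
IleRS: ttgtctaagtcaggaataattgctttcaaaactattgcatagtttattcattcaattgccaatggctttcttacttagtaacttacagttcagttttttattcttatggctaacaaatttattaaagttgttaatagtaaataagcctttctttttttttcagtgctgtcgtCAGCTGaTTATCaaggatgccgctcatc
ThrRS: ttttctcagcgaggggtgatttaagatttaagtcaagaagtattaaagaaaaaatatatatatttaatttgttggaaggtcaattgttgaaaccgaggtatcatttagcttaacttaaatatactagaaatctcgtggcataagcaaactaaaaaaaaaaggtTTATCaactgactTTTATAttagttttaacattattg

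The printed interval at GluProRS (259 bp) has 34.0% GC, that at ArgRS-m (243 bp) 48.1%, that at IleRS (200 bp) 31.0% and that at ThrRS (200 bp) 26.5%. The 200 bp at the summits of all reproducible promoter peaks had a median GC content of 34.8% (quartiles 30.3 and 41.8%). In the same 200 bp window, the summit of GluProRS had 30.3% and that of ArgRS-m 46.8%. ArgRS-m was thus the GC-rich one of the 4.

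SerRS, the cytoplasmic seryl-tRNA synthetase gene on 2L, had the strongest promoter peak among the members. The peak ran from 3037204 to 3037550, with its summit at 3037395 in the 5′ UTR of SerRS, 8 bp inside the gene. The summit also lay in an intron of CG17260, on the other strand. The nearest TSS of CG17260 was 16 bp from the summit, and the closest start sites of the 2 genes lay 8 bp apart. Its pooled rank was 883, and replicates 1, 2 and 3 ranked it 573, 795 and 1819. Relative signal is the peak caller's value divided by the median of the 30000 candidate peaks of the same list (1 list per replicate and 1 for the pooled replicates). It was 14.6, 9.28 and 6.44, a mean of 10.1 ± 4.15 (SD, n = 3). The peak was thus among the 7248 strongest of every replicate, and stronger than 81.1% of the reproducible promoter peaks.

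GluProRS, the glutamyl-prolyl-tRNA synthetase gene on 3R, came next. Its peak from 23958374 to 23958685 had its summit at 23958553, between genes, in the first sequence above. The summit lay 162 bp upstream of GluProRS and 98 bp from the TSS of AP-1sigma, which encodes a subunit of a clathrin adaptor complex, so it was closer to the neighbour. Its pooled rank was 1339, and the replicates ranked it 977, 1601 and 2219. Relative signal was 10.8, 6.03 and 5.56, a mean of 7.47 ± 2.90 (SD, n = 3). SerRS was above GluProRS in each of the 3 replicates, although the ranges over replicates overlapped; the difference was not tested. The second annotated TSS of GluProRS, inside the gene, had a candidate in every replicate, but at ranks of 9702 or lower, outside the lists of 7248.

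ArgRS-m, the mitochondrial arginyl-tRNA synthetase gene on 3R, had the lowest-ranked of these peaks, from 7886747 to 7887156. Its summit at 7886952, between genes, was 93 bp upstream of ArgRS-m and 219 bp from the TSS of CG17816. Its pooled rank was 6151, and the replicates ranked it 5069, 5562 and 9746. Relative signal was 2.90, 2.32 and 1.57, a mean of 2.26 ± 0.670 (SD, n = 3). In replicate 3 the summit lay farther out, 224 bp upstream of the gene, and was not among the 7248 strongest.

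The AspRS peaks were not at the main start of the gene. AspRS, the cytoplasmic aspartyl-tRNA synthetase gene on 2R, has its canonical TSS at 12877004 and others 3280 and 3428 bp downstream. A pair of reproducible summits, at 12879993 and 12880194, lay 291 and 90 bp upstream of the second TSS. Nmda1, the gene of an NMDA-type glutamate receptor subunit, starts on the other strand 54 bp from that TSS, and its nearest TSSs were 195 and 36 bp from the summits. The first summit lay in introns of both genes and the second in 5′ UTRs of both. The first had ranks 2018, 3415 and 5512 in the replicates and a relative signal of 6.57, 3.46 and 2.70, a mean of 4.24 ± 2.05 (SD, n = 3). The second had relative signals of 3.37, 0.813 and 2.05, a mean of 2.08 ± 1.28 (SD, n = 3), and was within the list of replicate 1 alone. At the canonical TSS the strongest candidates had ranks 11254 and 16919 in replicates 2 and 3, and replicate 1 had none.

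**Figure D1:**
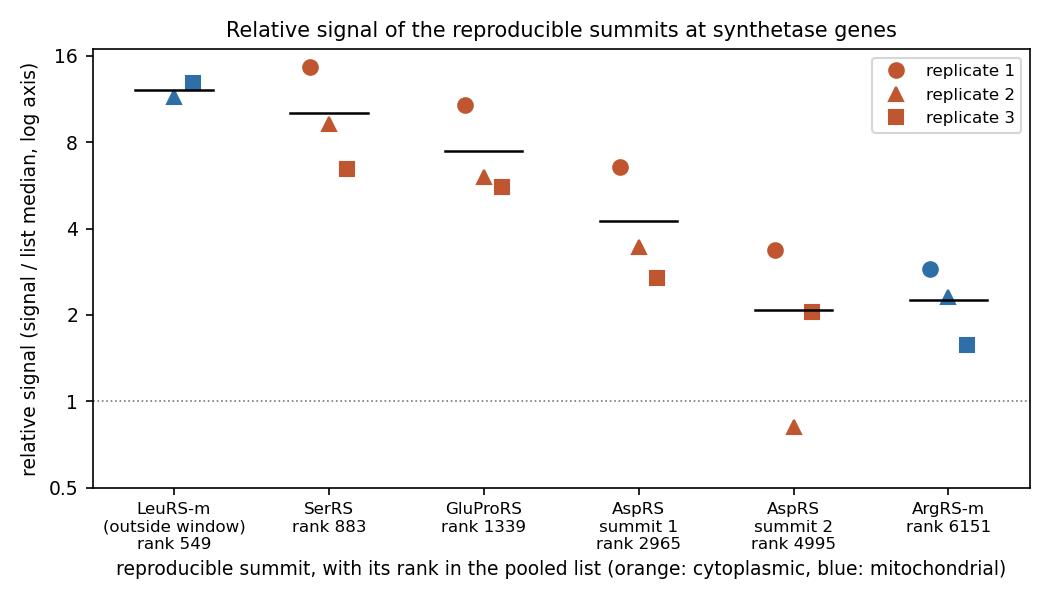
Relative signal (log axis, signal divided by the median candidate of the same list) of the 6 reproducible summits at synthetase genes, by replicate, with the mean as a line. Replicate 1 holds the highest point at all 5 summits inside the promoter window, and the LeuRS-m summit has points from replicates 2 and 3 only.

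Replicate 1 gave the highest relative signal at each of these 5 summits. The same was true of 63.9% of the 1730 reproducible promoter peaks with a candidate in all 3 replicates, so this order was common in the series. The size of a relative signal depends on its denominator. Divided instead by the median of the 7248 strongest peaks of each replicate, the mean was 2.71 for SerRS, 1.99 for GluProRS, 1.13 for the first AspRS summit and 0.612 for ArgRS-m. The order was the same, and ArgRS-m was below the typical peak of those lists.

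LeuRS-m, the mitochondrial leucyl-tRNA synthetase gene on 3L, had a stronger reproducible peak just outside the window. Its summit at 4825022 lay 831 bp upstream of the LeuRS-m TSS, in an intron of Dhc64C, the cytoplasmic dynein heavy chain gene, whose TSS is 166 bp from that of LeuRS-m on the other strand. Its pooled rank was 549, against 524 in replicate 2 and 576 in replicate 3. Relative signal was 11.5 and 12.9 there, and no candidate of replicate 1 lay within 200 bp.

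Single replicates held more cytoplasmic synthetase promoters than the reproducible list did. For each replicate the 7248 strongest candidates were taken as its list. A further 7 members had a summit in 1 or more of these lists and none in the reproducible list, and all 7 were cytoplasmic. This is 38.9% of the 18 cytoplasmic members, against 8.21% of all protein-coding genes and 0 of the 15 mitochondrial members. For the 15, a count of 0 allows a share of up to 20.0%, taken as 3 counts of 15. In all, 11 of 33 members (33.3%) were in the list of at least 1 replicate, against 23.3% of all protein-coding genes, and 3 (9.09%) were in all 3 lists, against 10.7%. Of the 7, ThrRS was in 2 lists and the other 6 in 1 list. The 7 include ThrRS and GlyRS, for whose amino acids the rule found no mitochondrial member.

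IleRS, the cytoplasmic isoleucyl-tRNA synthetase gene on 3L, had the strongest of these summits. In replicate 3 a summit at 22288514, 151 bp upstream of IleRS and 319 bp from the TSS of Hem, a gene of the actin-regulating WAVE complex, had rank 1479 and a relative signal of 7.34. No candidate within 500 bp of the TSS was present in replicates 1 or 2 or in the pooled list. Such a case was rare: of the first 1479 peaks of replicate 3, 18 (1.22%) had no pooled candidate within 200 bp.

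ThrRS, the threonyl-tRNA synthetase gene on 2L, had a summit 226 bp upstream in replicate 2 at rank 2487 and one 246 bp upstream in replicate 3 at rank 3551. Their relative signals were 4.40 and 3.85, above the 3.46 and 2.70 of the first AspRS summit in the same replicates. Replicate 1 and the pooled list had no candidate within 500 bp. The nearest other start was that of Patsas on the opposite strand, 240 and 220 bp from the summits.

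The other 5 had weaker summits. ArgRS, on X, was in the list of replicate 2 at rank 4667 and a relative signal of 2.68, and just missed that of replicate 3 at rank 7426. AsnRS had a summit in replicate 3 alone, at rank 5940 and a relative signal of 2.52. MetRS had one in replicate 2 alone, at rank 5615 and a relative signal of 2.30. AlaRS was in the list of replicate 1 at rank 7023, had weaker candidates in replicates 2 and 3, and stood at rank 8547 in the pooled list, below the 7248. GlyRS entered the list of replicate 1 at rank 7212, at its very end, and had rank 11365 in the pooled list. These 5 summits lay 36 to 303 bp upstream of their genes.

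**Figure D2:**
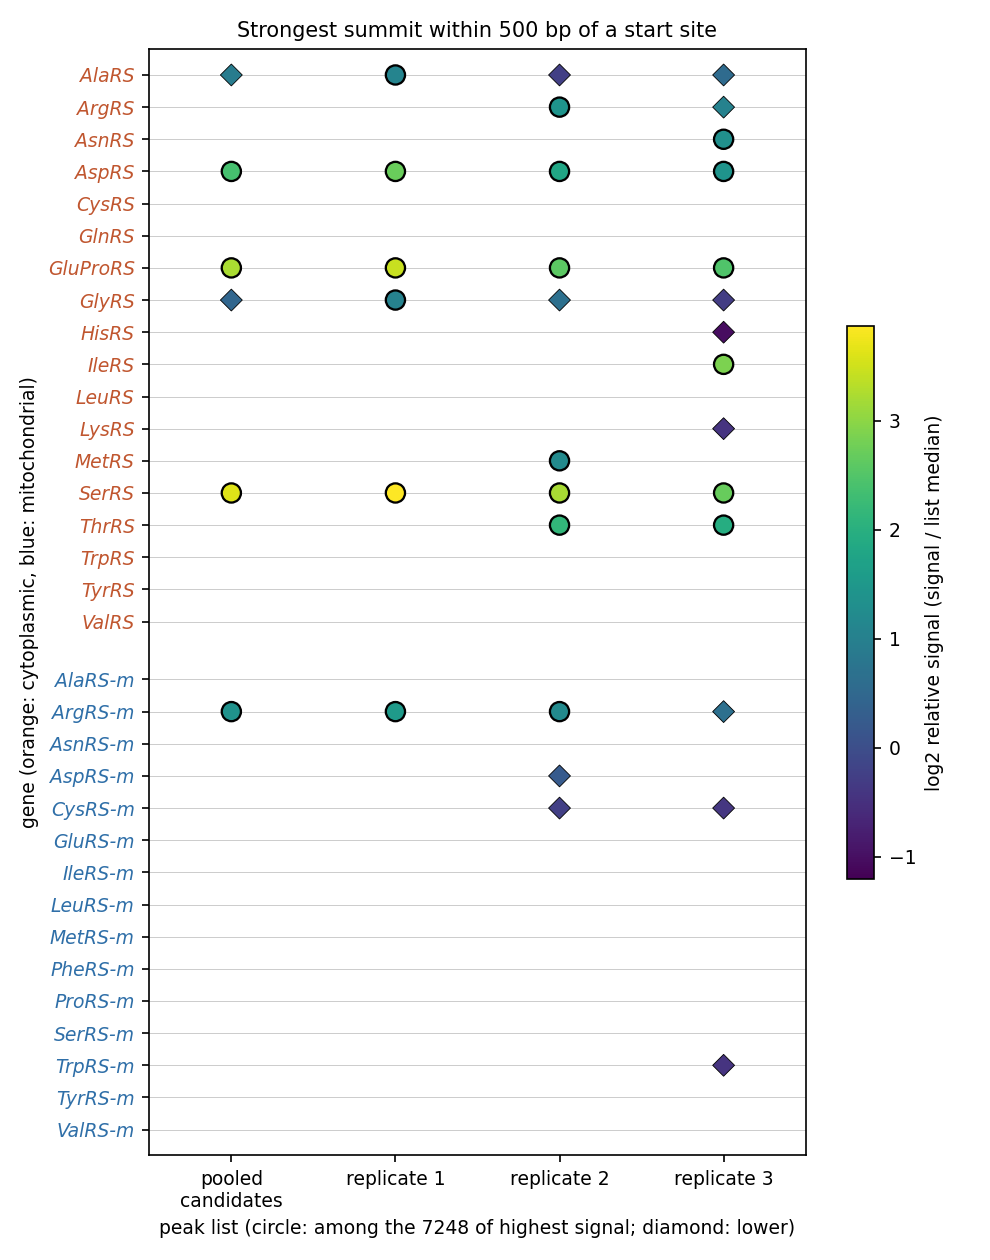
Strongest summit within 500 bp of a TSS for each of the 33 genes (rows) in the pooled candidates and in each replicate (columns); colour is the log2 relative signal, circles are among the 7248 strongest of their list and diamonds are weaker. Circles in the upper block belong to 10 of 18 cytoplasmic genes, and in the lower block only ArgRS-m has any.

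Of the 33 members, 17 (51.5%) had no candidate within 500 bp in any list, against 48.6% of all protein-coding genes. They were 11 of 15 mitochondrial members (73.3%, Wilson interval 48.1 to 89.1%) and 6 of 18 cytoplasmic members (33.3%, 16.3 to 56.3%). Both intervals include the share of all genes, and they overlap. Of the 15, AspRS-m, CysRS-m and TrpRS-m had weak candidates in replicate 2 or 3, at ranks from 12442 to 19757. The 11 with none were AlaRS-m, AsnRS-m, GluRS-m, IleRS-m, LeuRS-m, MetRS-m, PheRS-m, ProRS-m, SerRS-m, TyrRS-m and ValRS-m. Of the 18 cytoplasmic genes, HisRS and LysRS had candidates in replicate 3 alone, at ranks 27945 and 19706. The 6 with none were CysRS, GlnRS, LeuRS, TrpRS, TyrRS and ValRS. In the pooled candidate list, 6 members (18.2%) had a summit within 500 bp, against 30.5% of all protein-coding genes. In the full lists of replicates 1, 2 and 3, which hold weaker candidates too, 6, 11 and 14 members (18.2%, 33.3% and 42.4%) did, against 29.1%, 40.0% and 37.3% of all protein-coding genes.

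Cytoplasmic members had a promoter summit more often than mitochondrial members in each replicate. The shares of cytoplasmic members were 27.8%, 33.3% and 33.3% in replicates 1, 2 and 3, a mean of 31.5 ± 3.21% (SD, n = 3). Those of mitochondrial members were 6.67%, 6.67% and 0%, a mean of 4.44 ± 3.85% (SD, n = 3). The 2 sets of replicate values did not overlap. All protein-coding genes gave 15.2%, 18.0% and 16.9%, between the 2 classes in every replicate. The difference between the classes was 21.1, 26.7 and 33.3 percentage points, a mean of 27.0 ± 6.12 (SD, n = 3), with an exact sign-flip permutation p of 0.25, two-sided, the smallest that this test can give with 3 replicates. When each summit was given only to its nearest TSS, the mean difference was 10.4 points, with the same p. In the reproducible list the classes were closer, 3 of 18 (16.7%, Wilson interval 5.84 to 39.2%) against 1 of 15 (6.67%, 1.19 to 29.8%), and the intervals overlapped. The lists share a control file and the same 33 genes, so the replicate SD does not cover the choice of genes. ThrRS and GlyRS, whose amino acids have no mitochondrial member by the rule, were counted as cytoplasmic.

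**Figure D3:**
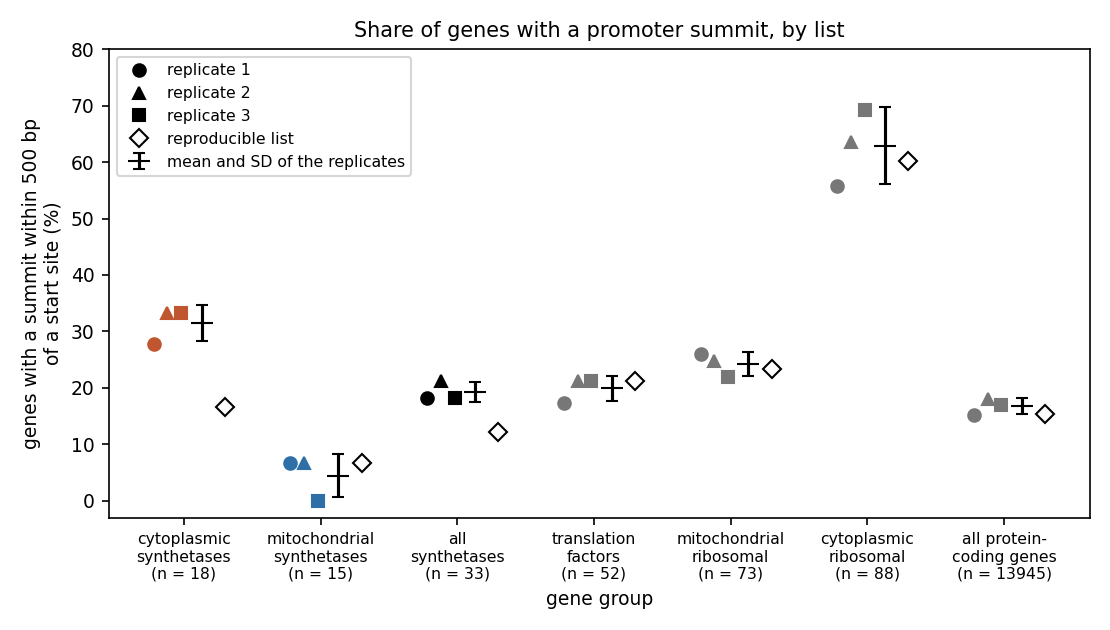
Percentage of genes with a summit within 500 bp of a TSS in each replicate's list of 7248 peaks (points), their mean and SD (bars, n = 3) and the reproducible list (open diamonds), by gene group. Cytoplasmic synthetases lie at 27.8 to 33.3%, above all protein-coding genes, and mitochondrial synthetases at 0 to 6.67%, below them.

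Other translation genes were counted in the same way, without a test. Translation factor genes (symbols with eIF or eEF) had a summit in 19.9 ± 2.22% of 52 cases (SD, n = 3 replicate lists). Mitochondrial ribosomal protein genes had one in 24.2 ± 2.09% of 73 and cytoplasmic ribosomal protein genes in 62.9 ± 6.85% of 88. The 33 synthetase genes gave 19.2 ± 1.75%, within the spread of the translation factors, against 16.7 ± 1.42% of all protein-coding genes. That share combines a mean of 31.5% for cytoplasmic and 4.44% for mitochondrial members. In the reproducible list the synthetase genes had the lowest share of these groups, 12.1% (Wilson interval 4.82 to 27.3%), against 15.4% of all protein-coding genes. Translation factor genes had 21.2% there (12.2 to 34.0%), mitochondrial ribosomal protein genes 23.3% (15.1 to 34.2%) and cytoplasmic ribosomal protein genes 60.2%. The synthetase interval overlapped those of translation factor and mitochondrial ribosomal protein genes.

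The cytoplasmic synthetase genes were mostly arranged in divergent pairs. A protein-coding gene on the opposite strand started within 1000 bp upstream of 16 of 18 cytoplasmic members (88.9%) and of 7 of 15 mitochondrial members (46.7%), against 36.2% of all protein-coding genes. The median gap between the 2 starts was 238 bp over the 23 members with a partner. All 4 members in the reproducible list had such a partner at a TSS. For AspRS the closest one was Lfg, 38 bp from the canonical TSS and away from the peaks, and Nmda1, at the second TSS, met the limit as well. The share with a partner was 51.7% for all protein-coding genes in that list and 33.4% for the others. Of the 11 members in any list, 10 had one, and AlaRS did not. Most other members had a partner too: 13 of the 22 in no list (59.1%). Of the 29 members outside the reproducible list, 19 (65.5%) had one.

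**Figure D4:**
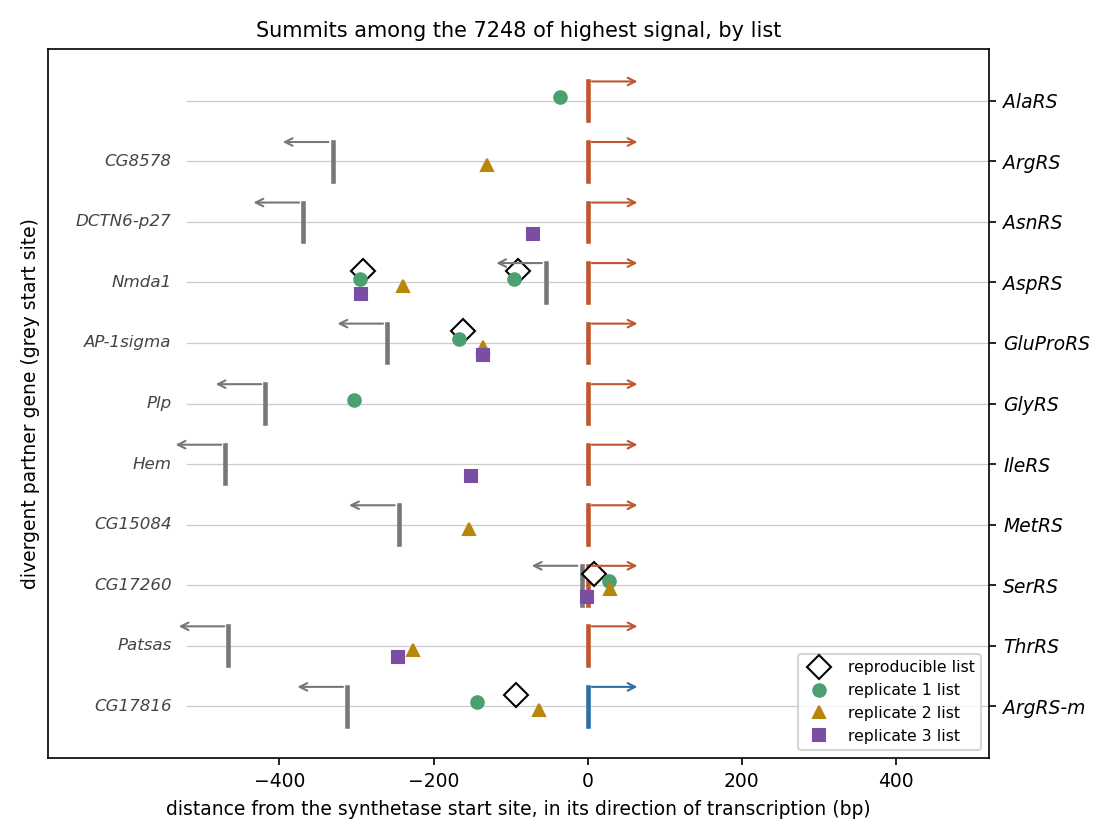
Summits among the 7248 strongest of each list around the TSS of the 11 genes concerned (coloured bar at 0; x axis in bp along the direction of transcription), with the TSS of the divergent partner in grey. Most summits lie between the 2 start sites; those at AspRS lie inside Nmda1, and those at SerRS on the 2 adjacent starts.

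Partner and class were then set side by side. Among members with a partner, 25%, 37.5% and 37.5% of the 16 cytoplasmic genes had a summit in replicates 1, 2 and 3, and 14.3%, 14.3% and 0% of the 7 mitochondrial genes. All protein-coding genes with a partner gave 21.4%, 28.2% and 24.7%, and those without one gave 11.6%, 12.2% and 12.5%. The cytoplasmic genes thus stayed above the mitochondrial ones among divergent genes, by counts of 4, 6 and 6 against 1, 1 and 0. In the replicate lists they exceeded all divergent genes by less than they exceeded all genes. In the reproducible list, 3 of the 16 cytoplasmic genes with a partner (18.8%) and 1 of the 7 mitochondrial ones (14.3%) had a summit, both below the 22.0% of all divergent genes. None of the 8 mitochondrial members without a partner had a summit in any replicate list, against 16.7% of all protein-coding genes without one. The part of gene arrangement in the class difference was not tested.

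**Figure D5:**
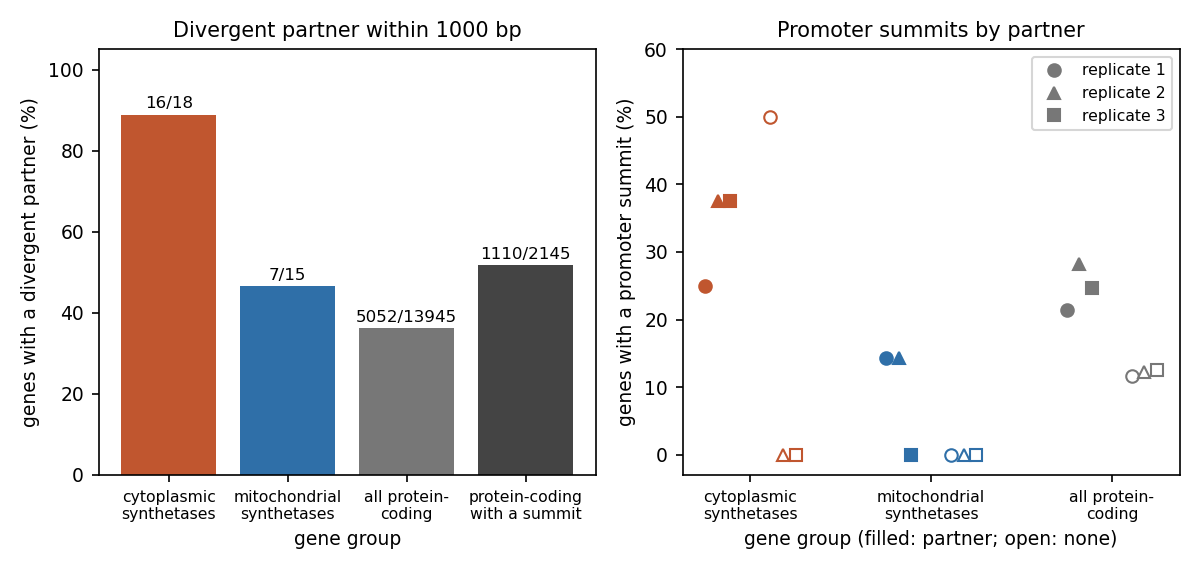
Left, percentage of genes with a divergent partner starting within 1000 bp, with counts above the bars; right, percentage of genes with a promoter summit in each replicate list, for genes with a partner (filled) and without (open). The open cytoplasmic points rest on 2 genes.

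Motifs were searched on both strands in the 200 bp around the 5 reproducible summits at members. The search covered TATCGATA (DRE, bound by Dref), GGTCACAC (Ohler motif 1) and the E-boxes CAGCTG and CACGTG. It also covered GAGAGAG (bound by GAGA factor), TGATGNAA (in elements bound by ATF4), TATAAA (the TATA box) and GATAA (bound by GATA factors). TATAAA was present at 2 of 5 summits (SerRS and the first AspRS summit), against 35.7% of all reproducible summit windows and 34.7% of those at promoter peaks. TATCGATA was present at the second AspRS summit, against 0.938% of all windows and 2.80% of those at promoter peaks, and the other 6 motifs were at none. Upstream of the canonical TSS, 200 bp held TATCGATA in 4 of 18 cytoplasmic and 0 of 15 mitochondrial members, against 6.96% of all promoters. CAGCTG was present in 6 of 18 and 3 of 15 of these, against 11.6%. GAGAGAG and TGATGNAA were in none of the 33, against 4.99% and 2.57% of all promoters. The GAGAGAG marked at ArgRS-m lay farther upstream than these 200 bp. TATAAA was in 15 of 33 and GATAA in 18 of 33, against 36.4% and 43.9% of all promoters. CACGTG was in 2 of 33 and GGTCACAC in 1 of 33, against 2.14% and 3.63%.

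Genes of the same process with other symbols were near the background too. Of 12 such genes, 1 (crc, 8.33%) had a reproducible promoter summit, against 15.4% of all protein-coding genes, and 2, 3 and 3 (16.7%, 25% and 25%) had one in the lists of replicates 1, 2 and 3, against 15.2%, 18.0% and 16.9%. The gene crc encodes the fly ATF4, a transcription factor of the amino acid response whose human counterpart induces synthetase genes. Its peak on 2L from 21313890 to 21314228 had a summit 287 bp upstream of a TSS, in an intron of a longer crc transcript. Relative signal was 5.42, 6.04 and 8.92 in the replicates, a mean of 6.79 ± 1.87 (SD, n = 3), with rank 1663 in the pooled list, between GluProRS and AspRS.

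Of the other 11, GatA, a subunit gene of the mitochondrial amidotransferase that completes glutaminyl-tRNA, had summits in replicates 2 and 3 at ranks 2876 and 1105. It had none in replicate 1 or in the pooled list, as was seen for ThrRS. Slimp, a paralogue of the mitochondrial seryl enzyme, was in the lists of replicates 1 and 2 at ranks 6360 and 7012. Thor, the gene of the translation inhibitor 4E-BP, was in that of replicate 3 at rank 3753. The cytoplasmic phenylalanine subunit genes alpha-PheRS and beta-PheRS had no candidate in any list. Nor had AIMP1 and AIMP2, which encode scaffold proteins of the multisynthetase complex, nor GatB and Gcn2, the gene of the kinase that senses uncharged tRNA. AIMP3 and GatC had candidates below the lists of 7248.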

How the data were processed

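ChIP-seq peak lists of 3 replicates in dm6 coordinates were used. Per the file headers, the authors called 30000 candidates per replicate on its alignments with a shared control file, called 30000 more on pooled alignments, and derived the reproducible list from an irreproducible discovery rate (IDR) step. Which aligner, caller and IDR cut-off were used is not given in the sources used here, and read depth is unknown, so intervals cover counting error over genes only. The deposited signal has no stated unit and its scale differs between lists, so it was divided by the median candidate of that list. The reproducible peaks were the 7248 pooled candidates of highest signal, checked on the files. No peak was identical between replicates. Deposited summit offsets gave positions.

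Genes and TSSs came from Ensembl release 115 (chromosomes 2L, 2R, 3L, 3R, 4 and X) and sequence from RefSeq Release 6, whose chromosome lengths hold every peak. A gene was called if a summit lay within 500 bp of a TSS. Replicate lists held the 7248 strongest peaks, and summits within 200 bp matched. Every member with a reproducible promoter summit was described in full, members with other summits by rank, and the rest by name. LeuRS-m was described after its values were seen. Members and lists were chosen with earlier results of these data known. Python 3.11.15, numpy 2.4.6, pandas 2.3.3 and scipy 1.17.1 were used, and calls were tested on simulated summits. P-values come from the sign-flip test over the labelled biological replicates and do not cover the choice of genes. With 3 differences of the same sign the p is 0.25 whatever their size or spread.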

Additional observations from a re-analysis of the deposited data

How the results depend on the processing

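The count of 4 members with a reproducible promoter summit was 3 to 5 under the other settings, except when each summit counted only for its nearest TSS, which left 2 members (ArgRS-m and SerRS) and 1 cytoplasmic member. With canonical TSSs AspRS dropped out. The count of mitochondrial members was 2 with a TSS window of 1000 bp, which took in LeuRS-m. It was 0 in the stricter peak set and among peaks recovered in all 3 replicate lists, and 0 to 1 when 1 replicate was left out (0 without replicate 1 or 2). The stricter set held 1367 of the 2145 protein-coding genes. The difference between cytoplasmic and mitochondrial members, 27.0 percentage points over the replicate lists, stayed positive. It was 10.4 with the nearest TSS only, 16.7 for peaks recovered in all 3 lists and 10 in the reproducible list, a setting added after the data were seen. The mean over the replicate lists was 23.9 to 30.0 when 1 replicate was left out, also an added setting. For reproducible peaks recovered in the other replicates, a different measure, leaving out 1 gave 10 to 16.7, beside the 10 of the reproducible list. Of the 5 summits at members, 3 were found in all 3 replicate lists and 5 in the full candidate lists. The mean share of members in the replicate lists, 19.2%, was 17.2% with a TSS window of 250 bp, 21.2% with 1000 bp, and 18.2 to 19.7% when 1 replicate was left out. No value reversed. The causes of these changes were not tested. No paired analysis was possible between sample groups because there was 1 group; the gene classes were compared within each replicate. With 3 replicates the exact sign-flip test cannot give a p below 0.25, and at unknown depth a missing summit does not show that a promoter was unbound.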
